A study of Rattus norvegicus with 7 samples.

Results

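The step from 5 to 7 days after an experimental stroke was read as the difference between 2 of 7 messenger RNA arrays, the array titled eMCAo 7day over the array titled eMCAo 5day. Every probe with a gene symbol was taken, which gave 13793 of 22523 probes and 13337 genes. Of these genes 9308 were brighter than the detection limit on either array, and the other 4029 are not described further. Male Wistar rats weighing 280 to 320 g had an embolus placed in the middle cerebral artery (eMCAo), and tissue was taken 168 hrs and 120 hrs later. The remaining arrays were from 72, 48, 24 and 12 hrs after occlusion and from normal rats. Each array received 400 ng of total RNA from tissue labelled ischemic brain, with no region named. There was 1 array per group, and the labels do not say whether it held 1 animal or a pool, so no p-value or spread between animals can be given for any difference.

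In the first week after a stroke microglia and macrophages that enter from the blood clear dead tissue and many of them divide. Astrocytes around the lesion become reactive, and fibroblasts lay down matrix. The striatum lies in the territory of the middle cerebral artery, and its projection neurons express a well-known set of dopamine, adenosine and neuropeptide genes. In bulk tissue, fewer cells of a type and less RNA per cell cannot be told apart.

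Levels are given as deposited intensities, in which background has been subtracted and values can fall below 0. Differences and folds were taken from log2 values of the background-modelled intensity plus 16, with all arrays brought to the same distribution. They are therefore smaller than the ratio of the intensities where a gene is dim, and a gene with a slightly lower intensity at 7 days can have a step slightly above 0. A fold against an array on which the gene was not detected is written as "at least", and was taken against the lowest detected level of that array or the gene's own value, whichever was higher. Higher and lower mean a difference of 2-fold or more in a gene that either of the arrays compared had detected. Brain genes were present on both arrays. Of 33 neuronal and synaptic genes 33 were detected at 7 days and 32 at 5 days, and of 19 myelin and oligodendrocyte genes 19 at each time. Between 8656 and 9066 genes were detected per array, 8782 of them at 7 days and 8995 at 5 days.

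The 5-day array stood apart in a few genes of the hypothalamus and pituitary. Pmch, which encodes the neuropeptide melanin-concentrating hormone, read 18.1 at 7 days and 5310.2 at 5 days, and between 32.6 and 109.5 on the other 5 arrays. Tshb, the thyrotropin subunit gene of the pituitary, read -4.08 at 7 days (not detected) and 1408 at 5 days, and was not detected on any other array. Over the whole pituitary list the summed intensity of 10 genes was 75 at 7 days and 1848 at 5 days, and 71.6 to 133 on the rest. The defining genes Prl, Cga, Lhb and Fshb were not detected on either array. The 22 hypothalamus genes summed to 3778 at 7 days and 10029 at 5 days, and to 1882 to 6884 on the rest. Pmch alone held 5310.2 of the 10029, and Tshb alone 1408 of the 1848 of the pituitary list. Of 20 detected hypothalamus genes 3 were lower at 7 days and 1, Oxt, was higher. Of 5 detected pituitary genes 3 were lower and 0 higher, beside 1.87% and 0.655% over all detected genes. The part of hypothalamus and pituitary genes in other differences of this step was not tested. The medians of the main gene lists are therefore also given with the 72 hrs array in place of the 5-day array, a comparison chosen after the data were seen. It covers a longer interval, so a different sign there can come from the time course or from the 5-day array.

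Between 5 and 7 days 61 genes were higher (0.655% of 9308) and 174 were lower (1.87%). Together these 235 genes were 2.52% of those detected. Of the called genes 1 higher and 9 lower ones were not detected on the dimmer array, and the bound on the fold was under 2 for 1 and 5 of them. Between neighbouring earlier arrays the share was 2.46% for 24 over 12 hrs, 2.35% for 48 over 24 hrs, 2.05% for 72 over 48 hrs and 1.39% for 5 days over 72 hrs. At 5 days 853 genes had been above normal (9.09% of 9389) and 449 below (4.78%), together 13.9%, while at 7 days 461 were above (5.01% of 9194) and 84 below (0.914%), together 5.93%. The step ran toward normal for nearly all called genes. Of the 174 lower genes 170 had been above normal at 5 days, and of the 61 higher genes 56 had been below. These counts share the 5-day array on both sides, so a 5-day value that was off by chance would itself look like a return. The median step over all detected genes was 0.0084 (log2). Without normalization between arrays it was -0.18, and the calls were 27 higher and 320 lower, so that 7.78% of the called genes were higher in place of 26.0%. At a limit of 1.5-fold the share was 39.8% and at 3-fold it was 4.17%. With the 72 hrs array in place of the 5-day array 60 genes were higher (0.641%) and 236 lower (2.52%), together 3.16%, among them 20 of the 61 and 111 of the 174. The genes nearest the limit were Gng7 (1.001) inside and Fezf2 (0.998) outside on the higher side, and Emilin1 (-1.0005) inside and Rac2 (-0.999) outside on the lower side.

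Changes seen at 5 days were sorted by what they had become. Receded means at least 2-fold back toward normal, and persisted means still at least 2-fold from normal with a step under 2-fold. In between means a step under 2-fold that left the gene under 2-fold from normal at 7 days. Of the 853 genes above normal 170 receded (19.9%), 348 persisted (40.8%) and 334 lay in between (39.2%). Among these, 100 of the 170 that receded were still at least 2-fold above normal at 7 days. Of the 449 genes below normal 56 receded (12.5%), 65 persisted (14.5%) and 328 lay in between (73.1%). At 7 days 404 of the 853 and 377 of the 449 were under 2-fold from normal. Genes above normal kept a median of 61.1% of their log2 difference at 7 days, and their quartiles were 48.8% and 74.2%. Genes below normal kept 49.5%, with quartiles of 38% and 62.1%. The classes and these shares take the 5-day value both to choose the genes and to measure their change. They therefore favour a return toward normal, and this holds for the lists below as well. No gene at least 2-fold on one side of normal at 5 days was at least 2-fold on the other side at 7 days. One gene, Oxt, moved further from normal, and 24 were at least 2-fold from normal at 7 days but not at 5 days.

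**Figure D1:**
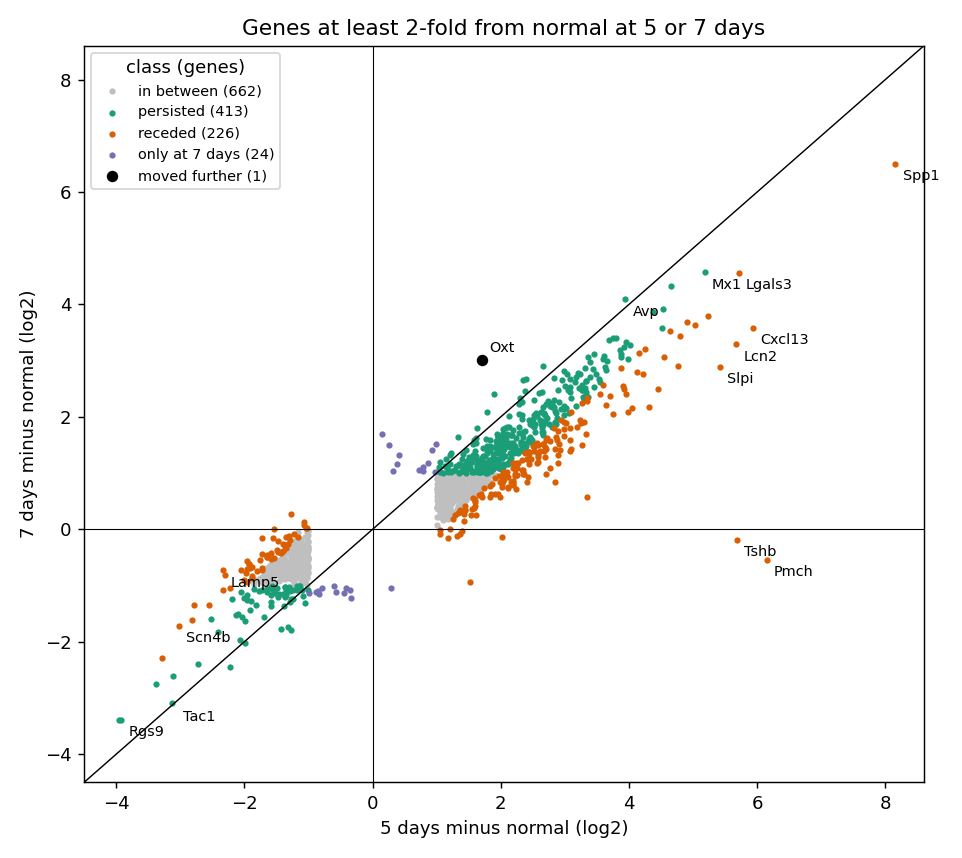
Each point is a gene at least 2-fold from normal at 5 or 7 days, with its log2 difference from normal at 5 days on the x axis and at 7 days on the y axis, coloured by class. Points on the diagonal kept the difference, and nearly all of them lie between the diagonal and the zero line, with Oxt above the diagonal and Pmch and Tshb below the zero line.

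A choice of genes that did not use either array gave the same direction. Of 485 genes at least 2-fold above normal at both 48 and 72 hrs, 481 were detected on the 5- or 7-day array. Their median step was -0.76 (log2), 474 of the 481 had a step below 0, 136 were lower and 1 was higher. Of 166 genes at least 2-fold below normal at both times, 164 were detected. Their median step was 0.64, 156 of the 164 had a step above 0, 33 were higher and 0 were lower. Over all 9308 detected genes the median step was 0.0084, with 4549 below 0 and 4750 above. Of these 9308 genes 174 were lower (1.87%) and 61 higher (0.655%). At 7 days 287 of the high genes and 45 of the low genes were still at least 2-fold from normal.

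Genes of DNA replication and mitosis had the most negative median among lists of 8 or more detected genes. Of 48 detected genes 27 were lower at 7 days than at 5 days and 0 were higher, beside 1.87% and 0.655% over all detected genes. The list's median step was -1.07 against 0.0084 over all genes. Cdk1, the kinase that drives entry into mitosis, read 203 at 7 days and 923 at 5 days, against 25.5 on the normal array. It was 3.7-fold lower at 7 days than at 5 days and still 4.26-fold above normal. Rrm2, a subunit of the enzyme that makes deoxyribonucleotides, read 177 at 7 days and 816 at 5 days, against 18.2 on the normal array, and was 3.71-fold lower. Both genes had been highest at 72 hrs, at 1195 for Cdk1 and 1312 for Rrm2. Pbk, a mitotic kinase gene, read 67 at 7 days and 321 at 5 days and was 3.25-fold lower. The cyclin gene Ccnb2 read 348 at 7 days and 1324 at 5 days, with a step of -1.70 (log2), and the kinesin gene Kif11 read 85.9 at 7 days and 342 at 5 days, with a step of -1.51.

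The return to normal was incomplete and uneven within the list. Of 36 members above normal at 5 days 27 receded and 3 persisted, beside 19.9% and 40.8% of all genes above normal then. The other 6 lay in between, and 18 members were above normal at 7 days. The median difference from normal was 0.82 (log2) at 7 days and 1.88 at 5 days. The kinase gene Aurkb persisted, at 326 at 7 days and 697 at 5 days. Replication genes had smaller steps in several cases. The polymerase clamp gene Pcna read 2733 at 7 days and 4638 at 5 days, with a step of -0.56, and the helicase subunit genes Mcm5 and Mcm7 had steps of -0.59 and -0.75, while Mcm2 and Mcm6 had steps of -1.36 and -1.31. The exception in direction was Stmn1, which encodes a microtubule regulator that neurons also express. It read 3306 at 7 days and 2667 at 5 days, with a step of 0.46. With the 72 hrs array in place of the 5-day array the list's median was -1.31 and 28 genes were lower.

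Promoters of genes that moved together were read from RefSeq (build GRCr8), as 250 bases before to 50 after the annotated start, and searched on both strands. Mitotic genes are known to carry a CCAAT box (CCAAT) and a cell cycle homology region (TTTGAA). Of 27 list genes lower at 7 days 21 had a promoter in the table, and of the other 23 also 21. TTTGAA was in 14 of 21 promoters of genes lower at 7 days, 3 of 21 of genes not called, and 18.1% of 27457 promoters of all genes. CCAAT was in 17 of 21, 13 of 21 and 37.7%, and both motifs were in 12 of 21, 2 of 21 and 7.25%. The list was split by its own values, so these are counts without a test, and a match does not show that a factor binds. Cdk1 (chr20:19265043-19265342, plus strand) and Ccnb2 (chr8:79981609-79981908, minus strand) are shown as genes with large steps and both motifs, and Mcm5 (chr19:13488563-13488862, plus strand) as a replication gene with a small step, which holds CCAAT and not TTTGAA. Capitals mark both motifs in either orientation.
Cdk1: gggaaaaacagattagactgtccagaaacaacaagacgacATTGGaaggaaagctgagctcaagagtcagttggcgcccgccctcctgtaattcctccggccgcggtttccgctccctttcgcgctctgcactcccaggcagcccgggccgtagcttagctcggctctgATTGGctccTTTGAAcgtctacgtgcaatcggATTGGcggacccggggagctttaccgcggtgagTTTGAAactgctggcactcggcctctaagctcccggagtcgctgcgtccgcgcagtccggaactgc
Ccnb2: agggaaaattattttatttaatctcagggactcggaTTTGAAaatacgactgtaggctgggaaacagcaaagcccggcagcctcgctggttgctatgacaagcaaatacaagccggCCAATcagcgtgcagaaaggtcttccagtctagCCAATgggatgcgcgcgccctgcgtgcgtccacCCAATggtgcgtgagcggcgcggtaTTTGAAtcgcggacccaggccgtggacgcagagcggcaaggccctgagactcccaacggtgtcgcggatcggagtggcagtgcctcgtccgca
Mcm5: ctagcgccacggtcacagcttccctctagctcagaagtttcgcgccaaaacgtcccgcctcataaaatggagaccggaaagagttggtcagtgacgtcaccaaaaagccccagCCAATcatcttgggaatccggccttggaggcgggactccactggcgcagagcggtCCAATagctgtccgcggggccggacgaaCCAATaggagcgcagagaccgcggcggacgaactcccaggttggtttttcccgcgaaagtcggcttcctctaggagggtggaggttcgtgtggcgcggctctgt

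Most genes of macrophages and other phagocytes were still far above normal at 7 days. All 38 genes of the list were detected, 13 were lower and 0 higher, beside 1.87% and 0.655% over all detected genes. The list's median step was -0.82. Spp1, the gene of osteopontin, a secreted matrix protein, read 5808 at 7 days and 21038 at 5 days, against 32.9 on the normal array. It was 3.14-fold lower than at 5 days and 91-fold above normal, the largest difference from normal of any gene on the 7-day array. Lgals3, which encodes galectin-3, read 4061 at 7 days and 10569 at 5 days, against 137 on the normal array, and was 2.23-fold lower. Fabp4, a fatty acid carrier, read 138 at 7 days and 699 at 5 days (3.87-fold lower), and Plin2, which coats lipid droplets, read 761 at 7 days and 2373 at 5 days (2.67-fold lower). Genes of the NADPH oxidase were in the same set, with Ncf1 at 1149 at 7 days and 3364 at 5 days and Cybb at 82.4 at 7 days and 304 at 5 days.

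Other phagocyte genes persisted. Of 35 list genes above normal at 5 days 13 receded, 18 persisted and 4 lay in between, and 28 were above normal at 7 days. Over all genes above normal at 5 days 19.9% receded and 40.8% persisted. Tyrobp, the adaptor of activating receptors, read 904 at 7 days and 1307 at 5 days, against 58 on the normal array, and was 10.6-fold above normal at 7 days. Trem2, the lipid receptor that signals through it, read 5416 at 7 days and 9619.97 at 5 days, with a step of -0.68. Ctss, a lysosomal protease, read 7149.6 at 7 days and 7426 at 5 days and was the 1 gene of the list with a step above 0, at 0.1. Fcgr3a, an antibody receptor gene, read 1108 at 7 days and 2952 at 5 days and was 2.33-fold lower. With the 72 hrs array in place of the 5-day array the median was -0.61 and 14 genes were lower.

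Of 11 homeostatic microglia genes 1 was lower, beside 1.87% of all detected genes. This was Fcrl2, an Fc receptor-like gene, at 1609.9 at 7 days and 5012 at 5 days (2.7-fold lower). P2ry12, a nucleotide receptor of resting microglia, read 608 at 7 days and 1031 at 5 days, against 132 on the normal array, with a step of -0.55. The median step was -0.55, but with the 72 hrs array in place of the 5-day array it was 0.24. The list's median difference from normal was 0.71 at 72 hrs, 1.69 at 5 days and 1.44 at 7 days. A rise and then a fall cannot be told apart here from a 5-day array that was off by chance. Tspo, an outer mitochondrial membrane gene used as a marker of activated microglia, read 1747 at 7 days and 2793 at 5 days, against 90.3 on the normal array, and persisted at 14.6-fold above normal.

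**Figure D2:**
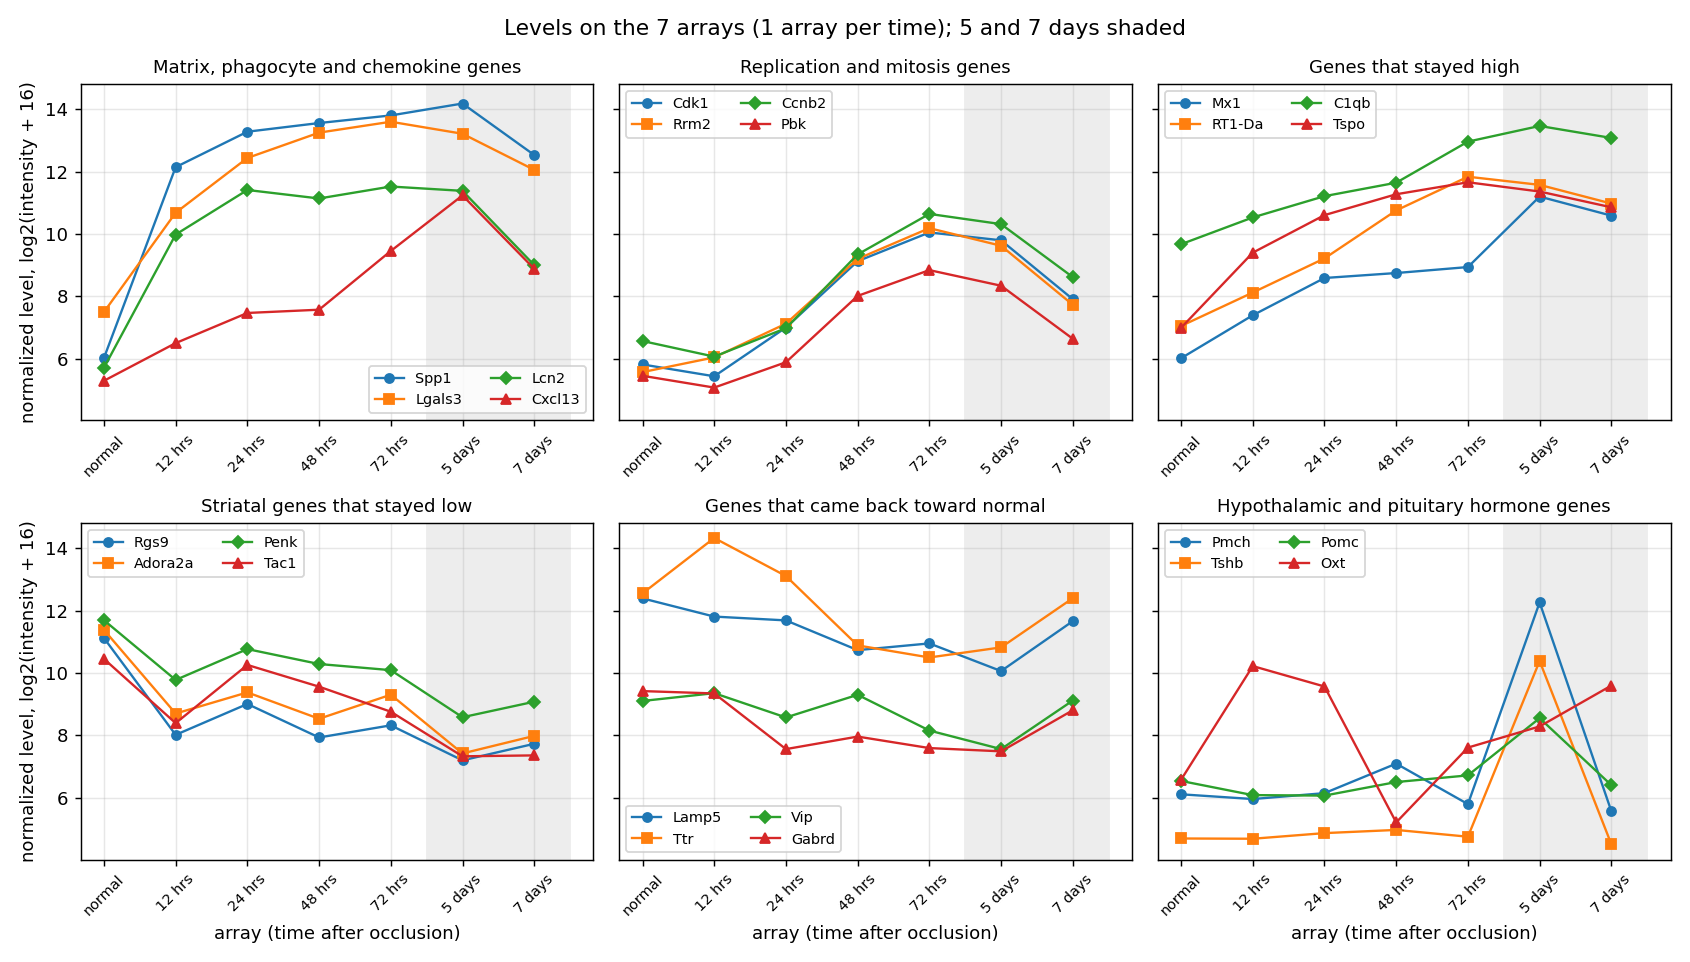
Each panel plots the normalized level, log2(intensity + 16), of 4 genes on the 7 arrays in order of time, with 1 point per array and the 5- and 7-day arrays shaded. Phagocyte and mitosis genes end below their 5-day level and above normal, Mx1, RT1-Da, C1qb and Tspo stay high, striatal genes stay low, and Pmch, Tshb and Pomc peak on the 5-day array.

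Chemokine genes were among the lists with several receding members. Of 27 detected chemokine and receptor genes 8 were lower and 0 higher, and of 16 changed at 5 days 8 receded. Over all genes, 1.87% of those detected were lower and 19.9% of those above normal at 5 days receded. Cxcl13, which attracts B cells, read 423 at 7 days and 2569.8 at 5 days, against 11 on the normal array. It was 5.11-fold lower, and its highest value of the 7 arrays was at 5 days. Cxcl2, which attracts neutrophils, read 21.6 at 7 days and 197 at 5 days, and was 4.02-fold lower. The monocyte attractant Ccl2 read 76.5 at 7 days and 289.7 at 5 days (2.64-fold lower), after 3342 at 24 hrs. Other ligands differed from these. Cxcl17 read 206 at 7 days and 225 at 5 days, with a step of 0.08, and Cx3cl1, which neurons make, read 5660.3 at 7 days and 3589 at 5 days, with a step of 0.75. Among cytokine genes Il1b, which encodes interleukin-1 beta, read 103 at 7 days and 434 at 5 days (3.1-fold lower), and its decoy receptor gene Il1r2 read 16.7 at 7 days and 103 at 5 days (2.57-fold lower). In all 2 of 21 detected cytokine and receptor genes were lower and 0 higher, beside 1.87% lower over all detected genes.

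Among genes of tissue remodelling most steps were under 2-fold. The median step of 39 detected extracellular matrix genes was -0.61, with 4 lower and 0 higher, beside 1.87% lower among all detected genes. Mmp12, macrophage elastase, read 122 at 7 days and 586 at 5 days and was 3.63-fold lower. Mmp14, a membrane-bound metalloproteinase, read 333 at 7 days and 819 at 5 days (2.1-fold lower), and the collagen gene Col5a2 read 165 at 7 days and 413 at 5 days (2.02-fold lower). Outside the list Mmp7, matrilysin, read 5.73 at 7 days (not detected) and 225 at 5 days, at least 6.19-fold lower. Of 26 matrix genes above normal at 5 days 13 persisted, beside 40.8% of all genes above normal at 5 days. Among the 13 was the collagen gene Col1a2, which read 2985 at 7 days and 5824 at 5 days, against 1369 on the normal array. Lum, a collagen-binding proteoglycan, also persisted, at 750.3 at 7 days and 1709 at 5 days, against 135 on the normal array. Sparc, a matrix protein gene, read 2859 at 7 days and 2959 at 5 days, with a step of 0.13.

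All antigen presentation genes that were above normal at 5 days persisted, beside 40.8% of all genes above normal at 5 days. Of 19 detected MHC class I and immunoproteasome genes 16 were above normal at 5 days, and 16 of these persisted. The median step over the detected genes was -0.25, and those above normal at 5 days kept a median of 85.5% of their log2 difference. Psmb8, an immunoproteasome subunit, read 1130.4 at 7 days and 2115 at 5 days, against 152 on the normal array, with a step of -0.70, and B2m, the light chain of class I molecules, read 22229.8 at 7 days and 25630.2 at 5 days, with a step of 0.071. Of 8 detected MHC class II genes 6 were above normal at 5 days, and 6 persisted. RT1-Da, a class II alpha chain, read 1915 at 7 days and 3253 at 5 days, against 95.5 on the normal array, and was 15.2-fold above normal at 7 days. Cd74, the invariant chain, read 281 at 7 days and 504 at 5 days, with a step of -0.59. The class I genes lie in a family of near-identical copies, so a probe may read more than 1 of them. The class I median was 0.13 with the 72 hrs array in place of the 5-day array, and the class II median -0.23.

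Interferon-induced genes mostly persisted. Of 32 above normal at 5 days 26 persisted and 3 receded, beside 40.8% and 19.9% of all genes above normal at 5 days. Those that receded were the antiviral genes Ifit1 and Ifitm1 and the deconjugating protease gene Usp18. Mx1, an antiviral GTPase gene, read 1445 at 7 days and 2492 at 5 days, against 32.7 on the normal array. At 7 days it was 23.8-fold above normal, and it was the highest above normal of all genes that persisted. On the earlier arrays after occlusion it had read between 133 at 12 hrs and 529.95 at 72 hrs, and at 7 days it was 3.13-fold higher than at 72 hrs. Ifit1 read 46 at 7 days and 171 at 5 days and was 2.34-fold lower, and Ifitm1 read 617 at 7 days and 1579 at 5 days and was 2.18-fold lower. Against the 72 hrs array the differences of Ifit1 and Usp18 were above 0, at 0.62 and 0.27. Irf7, a transcription factor of this response, read 622 at 7 days and 861 at 5 days, with a step of -0.26. The median step of 40 detected genes was -0.40. Against the 72 hrs array the median was 0.27, with 7 genes higher and 0 lower, beside 0.641% and 2.52% over all genes. The list's median difference from normal was 0.80 at 72 hrs, 1.81 at 5 days and 1.36 at 7 days. With 1 array per time, a rise and then a fall cannot be told apart from a 5-day array that was off by chance.

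The core of the interferon-stimulated response element is GAAA, any 2 bases and GAAA again, and was searched on both strands. It was in 21 of 30 promoters of interferon-induced genes and 9 of 20 of MHC class I and immunoproteasome genes. It was also in 6 of 28 of macrophage and phagocyte genes, 1 of 17 of striatal genes, 1 of 42 of the whole mitosis list and 3.77% of all promoters. Ifi44, a gene with interferon-induced expression, is shown (chr2:243303791-243304090, minus strand) because its 300 bases hold it at 2 places. It read 66.8 at 7 days and 129 at 5 days, with a step of -0.52, and persisted. Capitals mark the matches, here on the reverse strand.
Ifi44: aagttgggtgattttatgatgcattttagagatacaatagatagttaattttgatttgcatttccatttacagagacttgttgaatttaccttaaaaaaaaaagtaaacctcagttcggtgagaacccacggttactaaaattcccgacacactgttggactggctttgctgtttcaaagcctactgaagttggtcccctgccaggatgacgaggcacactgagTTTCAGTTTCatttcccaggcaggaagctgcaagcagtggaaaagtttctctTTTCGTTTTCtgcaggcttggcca

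Among complement genes the C1q chains persisted. Of 12 above normal at 5 days 8 persisted and 2 receded, beside 40.8% and 19.9% of all genes above normal at 5 days. C1qb and C1qc, chains of the recognition molecule C1q, read 8234 and 3452 at 7 days and 13015 and 6083 at 5 days, against 727 and 305 on the normal array. They were 10.6-fold and 10-fold above normal at 7 days. The 2 that receded belong to the alternative pathway, Cfp (properdin) at 272 at 7 days and 736 at 5 days and Cfd (factor D) at 363 at 7 days and 948 at 5 days. C4b read 821 at 7 days and 792 at 5 days, with a step of 0.24. With the 72 hrs array in place of the 5-day array the complement median was -0.025, the chemokine median -0.21 and the extracellular matrix median -0.41, against -0.55, -0.75 and -0.61 with the 5-day array.

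Genes of reactive astrocytes divided between both classes. Of 24 detected 4 were lower and 0 higher, beside 1.87% lower over all detected genes, with a median step of -0.33. Against the 72 hrs array the median was -0.54 and 10 genes were lower. Lcn2, which binds iron carriers of bacteria, read 461 at 7 days and 2820.2 at 5 days, against 22.3 on the normal array, and was 5.21-fold lower. Hspb1, a small heat shock protein gene, read 705 at 7 days and 2791 at 5 days (3.4-fold lower), and Timp1, a metalloproteinase inhibitor, read 835 at 7 days and 2441 at 5 days (2.53-fold lower). Each of these 3 genes had been highest before 5 days. The intermediate filament genes persisted, with Gfap at 13477 at 7 days and 19856 at 5 days, against 3805 on the normal array, and Vim at 4064 at 7 days and 7266 at 5 days. Gfap had a step of -0.31 and Vim one of -0.63. Hmox1, heme oxygenase, read 549.8 at 7 days and 1930.2 at 5 days (2.91-fold lower). Of resting astrocyte genes 0 were higher and 0 lower of 15, and the same held for 19 myelin and oligodendrocyte genes, whose steps ran from -0.16 to 0.50. As 2.52% of all detected genes were called, 0 calls among so few genes is near that share.

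Of 13 detected lymphocyte markers 1 was lower, beside 1.87% of all detected genes. This was Cd8a. It read 228 at 7 days and 723 at 5 days and was not detected on the normal array, and was 2.61-fold lower. Its product is a T-cell co-receptor that rat macrophages can also express. Cd3e, of the T-cell receptor complex, read 14.8 at 7 days and 17.4 at 5 days, and Cd3d was not detected at 7 days and read 10.4 at 5 days. Neutrophil markers were dim, with 6 of 13 detected and 2 lower, Mmp8 at 26.2 at 7 days and 170.4 at 5 days and S100a8 at 43.7 at 7 days and 151 at 5 days.

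**Figure D3:**
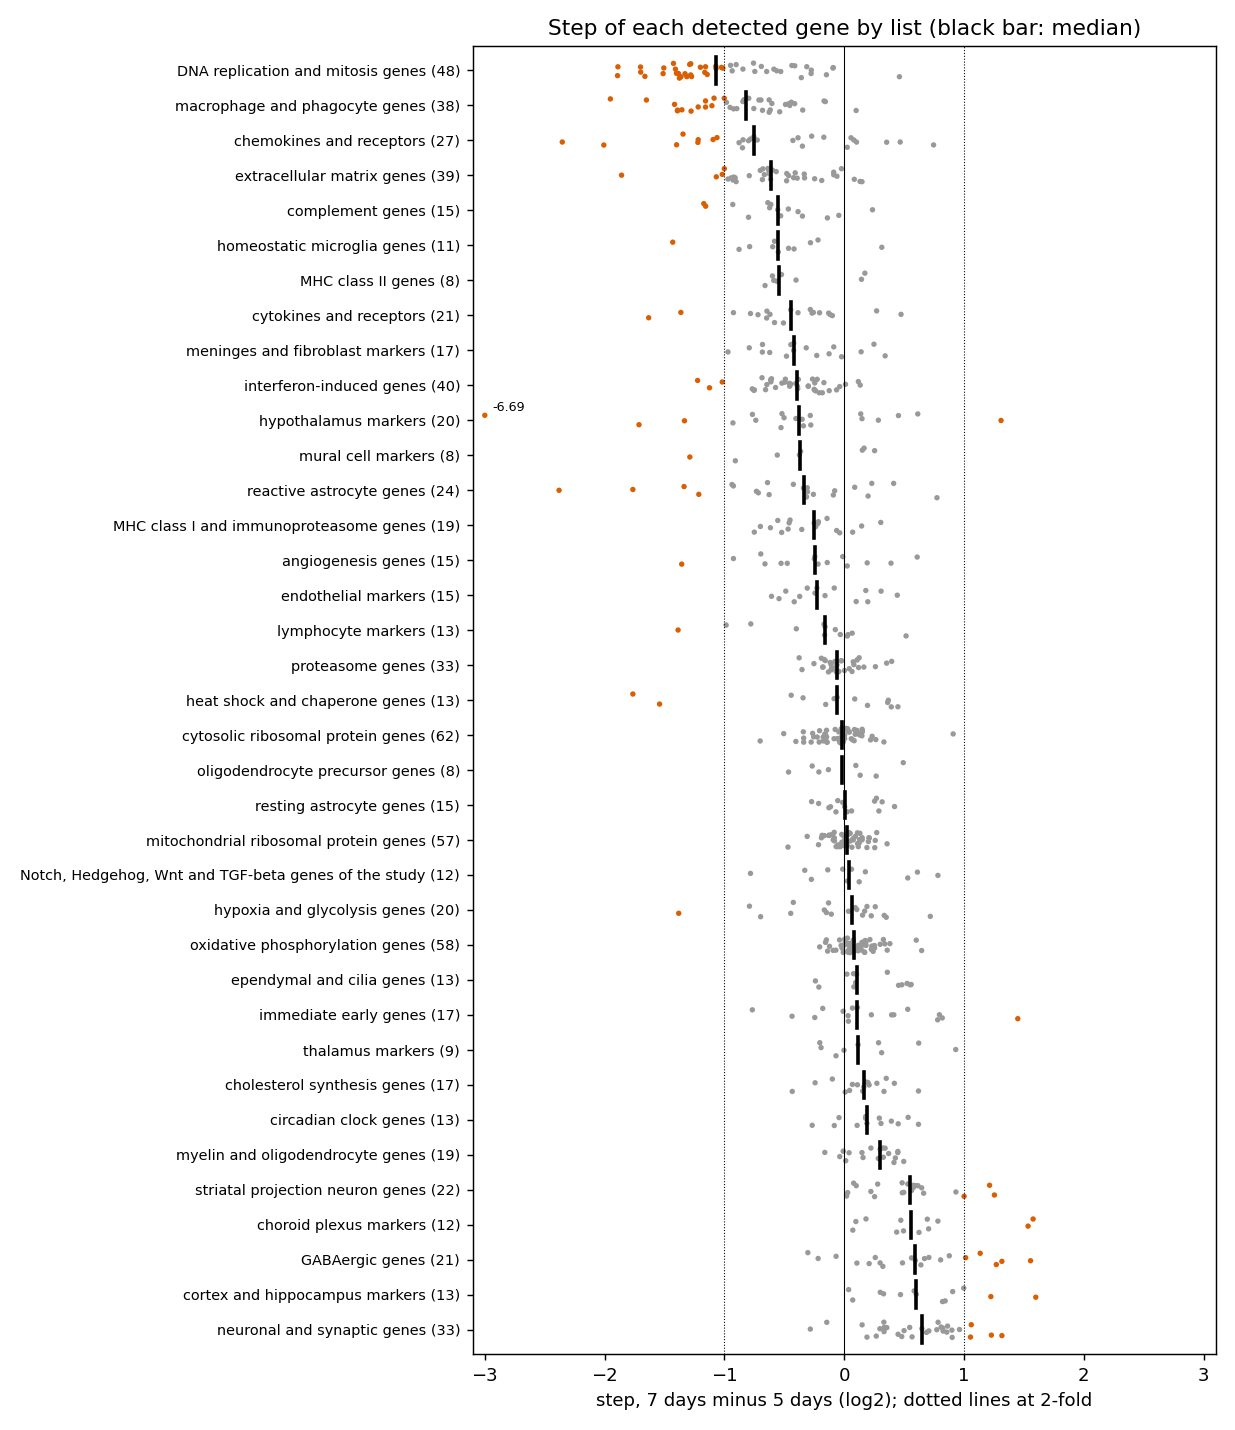
Each point is the step of 1 detected gene (7 days minus 5 days, log2) in a list of at least 8 detected genes, orange where past 2-fold, and the black bar is the list median. The value of Pmch, -6.69, lies outside the axis and is drawn at its edge. Medians run from -1.07 for DNA replication and mitosis genes to 0.65 for neuronal and synaptic genes, with ribosomal, proteasome and oxidative phosphorylation genes close to 0.

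The called genes of the neuronal and synaptic list were all higher at 7 days. Of 33 neuronal and synaptic genes 4 were higher at 7 days and 0 lower, beside 0.655% and 1.87% over all detected genes. The list's median step was 0.65, and 31 of its genes had a step above 0, beside 4750 of 9308 over all. Itpka, a kinase of dendritic spines, read 970.2 at 7 days and 432 at 5 days, against 1493 on the normal array, and was 2.49-fold higher. Hpca, the calcium sensor hippocalcin, read 2596 at 7 days and 1241 at 5 days (2.34-fold higher). Snap25, of the vesicle fusion complex, read 5864 at 7 days and 3267 at 5 days, with a step of 0.96. Of 15 list genes below normal at 5 days 1 was still at least 2-fold below at 7 days, beside 72 of all 449 genes below normal at 5 days. It was Camk2b, a kinase of synapses, at 1823 at 7 days and 1268 at 5 days, against 3661 on the normal array.

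Genes of inhibitory neurons and of the cortex shared this direction. Of 21 detected GABAergic genes 5 were higher and 0 lower, beside 0.655% higher over all detected genes. Vip, a neuropeptide of cortical interneurons, read 497 at 7 days and 178 at 5 days, against 480.2 on the normal array, and was 2.94-fold higher. The receptor subunit genes Gabrd and Gabra5 read 399 and 377 at 7 days, and 169 and 164 at 5 days. Pvalb, of fast-spiking interneurons, read 303 at 7 days and 146 at 5 days, against 273 on the normal array. Cort, which encodes cortistatin, persisted, and read 16.1 at 7 days and 9.99 at 5 days, against 189 on the normal array. Of 13 detected cortex and hippocampus markers 2 were higher and 13 had a step above 0. Lamp5, a membrane protein gene of cortical neurons, read 3079 at 7 days and 1098 at 5 days, against 4796 on the normal array. Its step of 1.60 (3.03-fold higher) was the highest of any gene. Neurod6, a transcription factor of pyramidal neurons, read 465 at 7 days and 215 at 5 days (2.34-fold higher). Arc, a plasticity gene, read 136 at 7 days and 39.1 at 5 days, against 365 on the normal array, and was 2.73-fold higher than at 5 days and 2.53-fold below normal.

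Striatal genes mostly stayed low. All 22 striatal projection neuron genes had a step above 0 and 3 were higher, beside 0.655% over all detected genes. Of 19 below normal at 5 days, however, 13 persisted and 3 receded. Over all genes below normal at 5 days 14.5% persisted and 12.5% receded. The list's median step was 0.55, beside 0.59 for the GABAergic, 0.60 for the cortex and hippocampus and 0.65 for the neuronal list. Striatal genes below normal at 5 days kept a median of 76.0% of their log2 difference. Those changed at 5 days in the GABAergic list kept 40.8% and in the neuronal list 39.1%. The 5-day array enters both the choice of these genes and the share kept. The striatal list was further from normal at 5 days, with a median difference of -2.06 against -1.04 and -0.90. A step of like size therefore leaves a larger share of it. The adenosine receptor gene Adora2a read 214 at 7 days and 159.9 at 5 days, against 2468 on the normal array, 10.5-fold below normal at 7 days. Rgs9, a regulator of dopamine receptor signaling, read 177 at 7 days and 134 at 5 days, against 2038 on the normal array, also 10.5-fold below. Tac1, which encodes substance P, read 130.1 at 7 days and 149 at 5 days, against 1296 on the normal array, and the dopamine receptor gene Drd1 read 30.5 at 7 days and 32.9 at 5 days, against 189 on the normal array. Both had steps near 0, at 0.029 and 0.10, and the sign of each changed under some alternatives of processing. The enkephalin gene Penk read 486 at 7 days and 389 at 5 days, against 3065 on the normal array, and the phosphodiesterase gene Pde10a read 218 at 7 days and 155 at 5 days, against 1589 on the normal array.

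The 3 striatal genes that receded were Gng7, Rasd2 and Arpp21. Rasd2, a striatal GTPase gene, read 555 at 7 days and 262 at 5 days, against 1748 on the normal array (2.32-fold higher), and Arpp21, a phosphoprotein gene, read 288 at 7 days and 125 at 5 days (2.39-fold higher). Gng7, a G-protein subunit gene, read 194 at 7 days and 98.1 at 5 days and lay at the limit, and its difference from 72 hrs was below 0, at -0.10. Set against 72 hrs in place of 5 days, the striatal median was 0.021 with 3 genes lower and 0 higher. The lower ones were Adora2a (2.5-fold lower than at 72 hrs), Penk (2.02-fold) and Tac1 (2.64-fold). The steps of Adora2a and Penk from 5 days were above 0, and that of Tac1 was near 0. In the same comparison the medians of the neuronal, GABAergic and cortex lists were 0.44, 0.34 and 0.71. The region taken was not stated, and a difference in the tissue taken cannot be told apart from a difference in time.

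**Figure D4:**
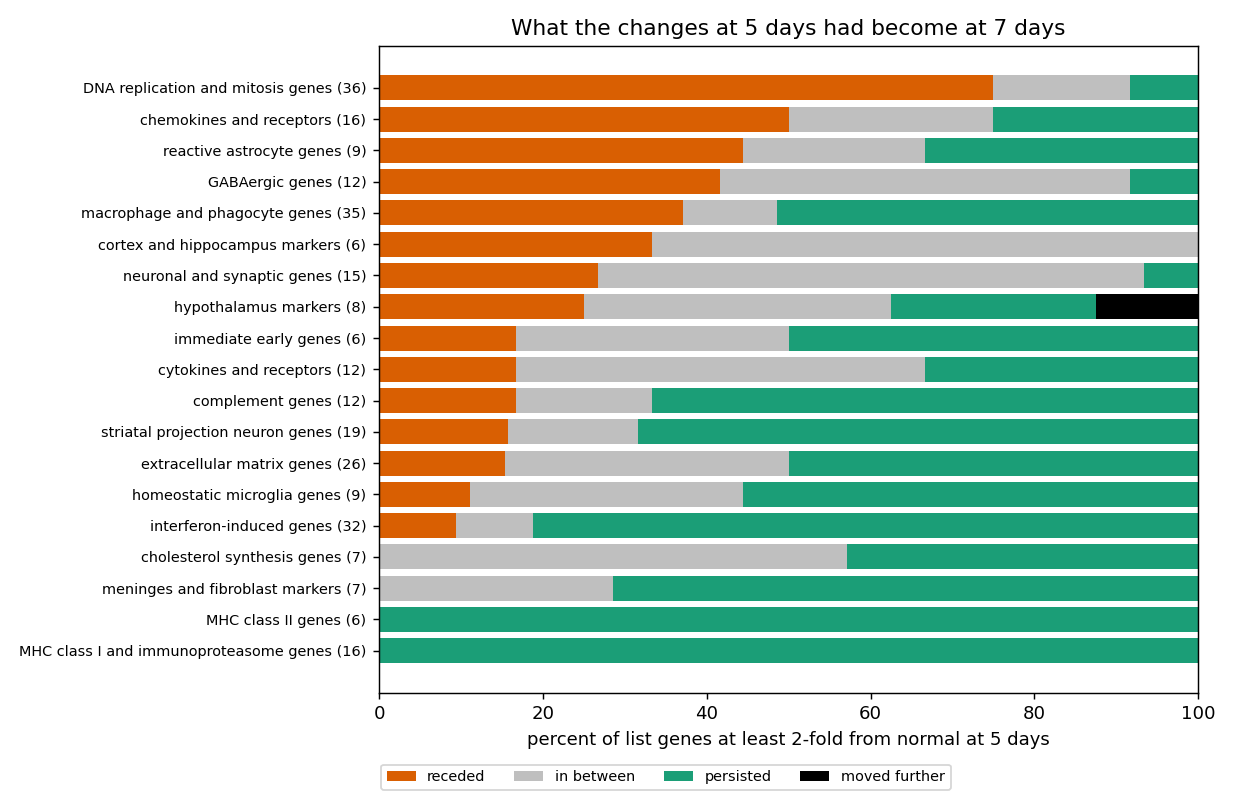
For each list with at least 6 genes at least 2-fold from normal at 5 days, the bar divides those genes (number in brackets) into classes at 7 days, in percent. The share that receded is largest for DNA replication and mitosis genes, 27 of 36, and both MHC lists hold persisting genes alone, 16 of 16 and 6 of 6. Of all genes above normal at 5 days 19.9% receded and 40.8% persisted.

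Hormone genes moved in both directions. Besides Pmch (103-fold lower) and Tshb (at least 35.8-fold lower), Hcrt, the orexin gene, read 33.1 at 7 days and 199.6 at 5 days (3.28-fold lower, but 0.31 on the log2 scale against the 72 hrs array), and Pomc, which encodes the precursor of adrenocorticotropin, read 52.9 at 7 days and 380.4 at 5 days (4.43-fold lower). Nmu, the neuropeptide neuromedin U, read 14.2 at 7 days and 231 at 5 days (5.48-fold lower). Oxt, the oxytocin gene, was the 1 gene that moved further from normal. It read 706 at 7 days and 311 at 5 days, against 60.1 on the normal array, 2.48-fold higher than at 5 days, and had read between 9.72 at 48 hrs and 1114 at 12 hrs. Avp, the vasopressin gene, read 1089 at 7 days and 1089 at 5 days, against 36.4 on the normal array, and persisted at 17-fold above normal, although it had read 95.8 at 72 hrs. Oxt and Avp are expressed in a few nuclei of the hypothalamus, and both had high and low values in turn across the arrays.

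Choroid plexus genes were near the normal level, with a median difference from normal of 0.06 (log2) at 7 days and -0.55 at 5 days. Of 12 detected 2 were higher, beside 0.655% over all detected genes, and 12 had a step above 0. Ttr, the thyroxine carrier made by the choroid plexus, read 5371 at 7 days and 1936 at 5 days, against 5456 on the normal array (2.98-fold higher than at 5 days), and Sostdc1, a secreted inhibitor, read 331 at 7 days and 115 at 5 days, against 257 on the normal array (2.9-fold higher). The list's summed intensity was 13419 at 7 days and 8086 at 5 days, with a range of 6179 to 31708 on the other arrays, where Ttr was highest at 12 hrs (18245). Whether the amount of choroid plexus in the samples had a part in this was not tested.

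Genes that were at least 2-fold from normal at 7 days but not at 5 days, whatever the earlier arrays read, numbered 12 above and 12 below. The highest was Glycam1, a mucin-like gene, at 151 at 7 days and 41 at 5 days, against 26.6 on the normal array (3.22-fold above normal), although it had read 215 at 12 hrs. Rhoa, a GTPase of the cytoskeleton, read 377 at 7 days and 293 at 5 days, against 109 on the normal array, but had read 382 at 72 hrs. Pon1, a lipoprotein-bound esterase, read 95.2 at 7 days and 48.5 at 5 days, against 22.5 on the normal array, but had read 93 at 12 hrs. Among the lowest was Dnmt3a, a DNA methyltransferase, at 131 at 7 days and 303 at 5 days, against 325 on the normal array (2.33-fold below normal). Of the 12 above 3 were not detected on the normal array, and of the 12 below 5 were not detected at 7 days, and for 3 and 4 of these the bound on the fold was under 2. Tbc1d10c, Tph2 and Heca, which were not detected at 5 or 7 days, were at least 1.59-fold, at least 1.53-fold and at least 1.4-fold below normal at 7 days by this bound.

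Genes that every cell uses held no calls. Of 62 cytosolic ribosomal protein genes, 57 mitochondrial ribosomal protein genes, 58 oxidative phosphorylation genes and 33 proteasome genes detected, 0 were called in either direction. The share called over all detected genes was 2.52%. The medians of these lists were -0.019, 0.02, 0.079 and -0.061 in that order. Without normalization between arrays those of oxidative phosphorylation and mitochondrial ribosomal protein genes were below 0. Single genes of these lists had steps from -0.70 to 0.91. Where a gene had 2 or more detected probes, the probes ran in 1 direction for 126 of 192 genes (65.6%), and 0 had probes called in opposite directions. Only 3 of these genes had a called probe, and in all 3 another probe of the gene was under 2-fold. The steps of 1 gene's probes differed by a median of 0.19 (log2).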

How the data were processed

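Illumina rat bead arrays (7, with 1 per group) read messenger RNA. The deposited values were linear intensity values of each probe, from which the authors had subtracted background. GenomeStudio 1.8.0 is named in the submitters' processing notes. The study's methods mention normalizing to 5S rRNA but do not give the arrays this applied to. A second deposited table held 48 columns of 12 arrays that matched no sample, and it was not used.

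The normexp model (saddle-point fit, limma 3.58.1 in R 4.3.3) was fitted to each array, 16 was added as an offset, and the log2 values of all 7 arrays were brought to the same quantiles. Background estimates lay between -11.8 and -10.3 intensity units. The detection limit was the 98th percentile of each array's negative values with their sign turned, 8.72 to 10.1 units, a one-sided p of 0.01 if noise is symmetric. Symbols came from the platform annotation, and 99.7% of gene identifiers were found in RefSeq. Each of 13337 genes was read by its brightest probe.

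With 1 array per group no test across genes was possible, and size rules of 2-fold were used. The rate of false calls under these rules was not tested. Precision is limited by there being 1 array at each time. Lists (41) were described by medians and counts. Named genes were the 15 largest and 15 smallest steps, and the 10 highest and 10 lowest of those that persisted and receded. Also named were up to 3 members of each list by absolute step and all that moved further. The last were the 8 highest and 8 lowest of genes past 2-fold from normal at 7 days but not at 5 days. Other genes named, and the genes at the limit, were chosen after their values were seen. The rules, members and lists were chosen with earlier results of these data known. The promoter of a gene was its first entry in the RefSeq table. Alternatives were other scalings, offsets, size limits, filters and probe rules.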

Additional observations from a re-analysis of the deposited data

How the results depend on the processing

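The counts of genes higher and lower at 7 days than at 5 days, of genes that receded and of genes that persisted were 61, 174, 226 and 413. With an offset of 50 the counts of higher, lower and receded genes were 35, 99 and 130, and with an offset of 4 there were 93 higher genes. Without normalization between arrays 27 were higher and 320 lower, and the median step of all genes was the -0.18 (log2) given above. With a limit of 1.5-fold the 4 counts were 437, 661, 1004 and 695, and with 3-fold they were 1, 23, 23 and 214. The other alternatives left these counts within 1.5 times. The medians of genes high or low at 48 and 72 hrs kept their sign under all alternatives.

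List medians close to 0 changed sign. Without normalization those of resting astrocyte, thalamus, ependymal, immediate early, hypoxia and glycolysis, cholesterol synthesis, oxidative phosphorylation and mitochondrial ribosomal genes and of the study's Notch, Hedgehog, Wnt and TGF-beta genes were -0.19, -0.061, -0.12, -0.12, -0.11, -0.034, -0.092, -0.16 and -0.14. With median scaling the resting astrocyte median was -0.030, without a filter the thalamus median was -0.0017, and with detection on both arrays the erythrocyte median was 0.0014. Among named genes the steps of Tac1 (-0.17 to 0.032), Drd1 (-0.095 to 0.13) and Avp (-0.0023 to 0.16) took both signs over these alternatives.

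With the 72 hrs array in place of the 5-day array, an alternative chosen after the data were seen, medians changed sign for interferon-induced (0.27), microglia (0.24), MHC class I (0.13), lymphocyte (0.18), oligodendrocyte precursor (0.46), meninges (0.21), ependymal (-0.12), hypoxia and glycolysis (-0.010), cholesterol synthesis (-0.026), mitochondrial ribosomal (-0.032) and Notch, Hedgehog, Wnt and TGF-beta genes (-0.026). Of 68 named genes with a step of 2-fold or more the sign changed for Gng7 (-0.10), Ifit1 (0.62), Usp18 (0.27) and Hcrt (0.31), and of 101 named genes under 2-fold it changed for 25. The step moved by over 1.5-fold for 66 of all 169. The causes were not tested. No paired analysis was possible because the labels give no replicate numbers and each group has 1 array, which also left no replicate to leave out. Genes near the detection limit have only a bound on their change.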

Other observations

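Globin genes were low on both arrays. Hba-a1 and Hbb, which encode the chains of adult hemoglobin, read 46.3 and 44.1 at 7 days and 93.1 and 83.9 at 5 days, against 217 and 205 on the normal array and 5413 and 5449 at 12 hrs. They were 3.44-fold and 3.35-fold below normal at 7 days. The 8 erythrocyte genes summed to 156 at 7 days and 282 at 5 days, and to 528 to 12522 on the other 5 arrays. Globin genes have near-identical copies, and their probes do not tell the copies apart with certainty. The amount of blood in the samples was not stated.

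Cholesterol synthesis genes were below normal at both times. Of 7 at least 2-fold below at 5 days 3 persisted and 0 receded, beside 14.5% and 12.5% of all genes below normal then. The list's median difference from normal was -0.82 (log2) at 7 days and -0.94 at 5 days. Fdft1, squalene synthase, read 429.8 at 7 days and 310.3 at 5 days, against 762 on the normal array. Of the Notch, Hedgehog, Wnt and TGF-beta genes that the study followed, Tgfb1, which encodes transforming growth factor beta 1, persisted at 5.6-fold above normal. It read 267 at 7 days and 545 at 5 days, against 24.5 on the normal array. Of the 12 detected genes of that list 0 were higher and 0 lower at 7 days than at 5 days. As 2.52% of all detected genes were called, 0 calls among so few genes is near that share.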
